A study of Homo sapiens with 8 samples.

Results

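The immediate early transcription factor genes described here are FOS, FOSB, FOSL1, JUN, JUNB, JUND, EGR1, IER2, IER3 and ATF3. They were chosen by name, as a list of short-lived transcripts, with earlier results of these data known. Every array probe that the scanner files assign to 1 of these names was taken. This gave 14 probes for 10 genes, of 50599 probes for 36337 gene names on the array. IER3 has 2 probes, ATF3 has 4 and each of the other 8 genes has 1.

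The study is about resistance of colorectal cancer cells to the purine NU6102, an inhibitor of the cell cycle kinases CDK1 and CDK2, and about what that resistance costs the cells. All cells were HCT-116, a human colorectal carcinoma line, grown in DMEM with serum, and RNA was hybridised to 8 one-colour Agilent arrays of 60-base probes. WT is the untreated parental line in exponential growth. WT+NU6102 is the parental line given 20 µM NU6102 for 24 h. CDK2 KO is an untreated CDK2 knockout line in exponential growth, which the methods say was purchased, like its parent. R50 is a resistant line in exponential growth that was selected and kept in 50 µM NU6102. Each group had 2 arrays, which the submitters call biological replicates. CDK2 KO and R50 are thus 1 line each, and the labels do not say whether the R50 RNA came from early or late passages or from how many colonies. NU6102 was dissolved in DMSO, and a vehicle for the WT, CDK2 KO or R50 arrays is not named in the labels.

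Immediate early genes are switched on within minutes of a growth factor, stress or serum signal, without new protein synthesis. Kinases of the MAPK pathways activate factors such as ELK1, SRF and CREB1 that already sit on these promoters, and the transcripts are removed quickly, in part through AU-rich elements. FOS and JUN family proteins pair through leucine zippers to form AP-1, while EGR1 is a zinc finger factor. In colorectal carcinoma cells some of these genes can be kept active by oncogenic signalling through the RAS and MAPK pathway. The arrays do not measure the activity of that pathway.

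Levels are given as log2 of the scanner signal less the 75th percentile of its array, so that 0 is the signal of a gene at that percentile and 1 unit is a doubling. Levels of different probes were not set against each other. A gene with several probes is given by its brightest one. No array had a saturated spot, and each of the 14 probes was read well above background in all 8 samples. FOSB lay closest to background, at 1.72 log2 units above the dimmest such spot in its lowest array. The SD of duplicate arrays had a median of 0.05 log2 units over the 40 pairs of gene and group and was highest, at 0.30, for EGR1 in R50. The 2 arrays of a group correlated at 0.994 to 0.996 over the 28677 probes tested, and 32376 to 36206 spots per array were well above background. A group difference was called at a Benjamini-Hochberg adjusted p under 0.05 over all probes tested, by limma. CDK2 itself was lower in CDK2 KO than in WT by 0.77 (SE 0.04, limma adjusted p = 0.000268), and the deleted part of the gene is not given in the labels. It also differed from WT by -0.34 in R50 (limma adjusted p = 0.00671) and by 0.33 in WT+NU6102 (0.00233). On every array all 7 colorectal epithelial markers examined, such as EPCAM and KRT8, were read well above background, and their summed signal was 486 to 496 times the 75th percentile in WT, 572 to 593 in WT+NU6102, 612 to 637 in CDK2 KO and 757 to 764 in R50. Of 7 fibroblast markers only COL1A1 was so on all 8, and COL1A2, COL3A1, LUM, THY1 and PDGFRA were so on none, with a summed signal of 0.191 to 0.201 in WT, 0.127 to 0.152 in WT+NU6102, 0.396 to 0.412 in CDK2 KO and 0.270 to 0.292 in R50. Of 5 leukocyte markers PTPRC, CD14 and CD79A were so on all 8, and the summed leukocyte signal ranged from 18.6 to 22.4 times the 75th percentile in WT, 21.6 to 22.1 in WT+NU6102, 21.0 to 23.0 in CDK2 KO and 18.8 to 21.2 in R50. Of 6 endothelial markers CDH5 and VWF were so on all 8 arrays and KDR, TEK and EMCN on none, with a summed signal of 0.360 to 0.398 in WT, 0.358 to 0.408 in WT+NU6102, 0.397 to 0.410 in CDK2 KO and 0.442 to 0.449 in R50. The part of these markers in the results was not tested.

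CDK2 KO and R50 were hybridised on 1 slide, WT and WT+NU6102 on the other. Within a slide lie only the comparisons of WT+NU6102 with WT and of R50 with CDK2 KO. In the other comparisons slide and group cannot be told apart.

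Among the 4 groups, 6 of the 10 genes differed at an F-test adjusted p under 0.001 by limma, where 22.1% of all 21595 gene names tested did. These were FOS, FOSB, FOSL1, JUND, EGR1 and IER2. JUNB (adjusted p = 0.0014 by limma), JUN (0.0038), IER3 (0.0188) and ATF3 (0.459) were not past that threshold.

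**Figure D1:**
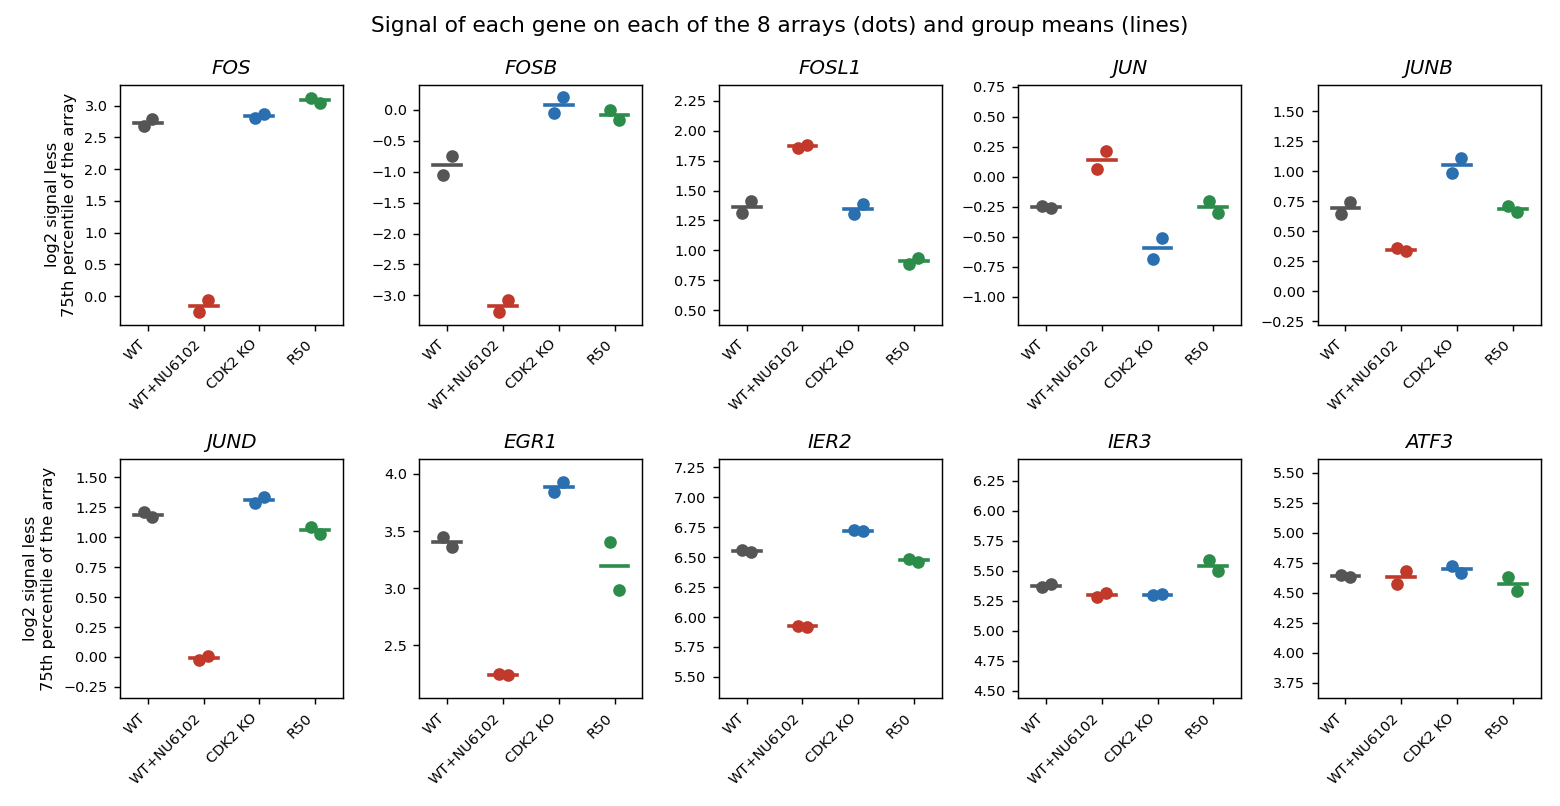
Signal of the 10 genes on each array. The y axis is log2 signal less the 75th percentile of the array, on a scale of its own in each panel, and the x axis gives the group; each dot is 1 array and each line the mean of the 2 arrays. WT+NU6102 lies below the other 3 groups for FOS, FOSB, JUNB, JUND, EGR1 and IER2 and above them for FOSL1 and JUN.

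Of the differences from WT, those of FOS, FOSB, JUND and EGR1 were largest after 24 h of NU6102 in the parental line. FOS, the founding member of the FOS family, read 2.67 and 2.79 on the WT arrays, -0.25 and -0.06 on the WT+NU6102 arrays, 2.81 and 2.87 in CDK2 KO and 3.12 and 3.04 in R50. Both treated arrays thus lay far below the other 6, and no groups overlapped. FOS fell by 2.89 log2 units with NU6102, or 7.41-fold (SE 0.08, 95% interval -3.10 to -2.68, limma adjusted p = 8.5e-05). As RNA of whole cultures was measured, fewer cells with the transcript and less of it per cell cannot be told apart. In the order of all 21595 gene names from the lowest to the highest change, it was number 39.

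FOSB, a FOS family member that brings a strong activation domain to AP-1, read -1.05 and -0.75 in WT, -3.27 and -3.07 in WT+NU6102, -0.04 and 0.21 in CDK2 KO and 0.0024 and -0.16 in R50. The treated arrays were again the lowest 2 of the 8, and the WT arrays were below all 4 arrays of CDK2 KO and R50. FOSB fell by 2.28 log2 units with NU6102, or 4.84-fold (SE 0.15, 95% interval -2.64 to -1.91, limma adjusted p = 0.000269), and was number 136 in the same order. With the normexp background correction the difference was -1.65 (limma adjusted p = 4.78e-05), outside that interval, so its size depended on how background was handled.

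JUND, the JUN family member usually present in resting cells, read 1.21 and 1.17 in WT, -0.03 and 0.0096 in WT+NU6102, 1.28 and 1.34 in CDK2 KO and 1.09 and 1.03 in R50. The treated arrays stood about 1 log2 unit below the lowest of the others. JUND fell by 1.20 with NU6102, or 2.29-fold (SE 0.05, limma adjusted p = 0.000123). EGR1, the zinc finger factor induced through SRF and ELK1, read 3.45 and 3.36 in WT, 2.25 and 2.24 in WT+NU6102, 3.84 and 3.93 in CDK2 KO and 3.41 and 2.99 in R50. Its R50 arrays differed from each other more than those of any other group, and only the treated arrays lay below both of them. EGR1 fell by 1.16 with NU6102, or 2.24-fold (SE 0.14, limma adjusted p = 0.00152).

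Smaller falls were found for IER2 and JUNB. IER2, a short nuclear protein of the early response, read 6.56 and 6.54 in WT and 5.92 and 5.92 in WT+NU6102, a fall of 0.63 or 1.55-fold (SE 0.04, limma adjusted p = 0.000299). JUNB, a JUN family member that can restrain JUN, read 0.65 and 0.74 in WT and 0.36 and 0.33 in WT+NU6102, a fall of 0.35 or 1.27-fold (SE 0.06, limma adjusted p = 0.00729). In both genes the treated arrays lay below all 6 others.

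FOSL1 and JUN went the other way. FOSL1, which encodes FRA1, a FOS family protein that lacks the strong activation domain, read 1.31 and 1.41 in WT and 1.86 and 1.88 in WT+NU6102, a rise of 0.50 or 1.42-fold (SE 0.06, limma adjusted p = 0.00149). JUN read -0.25 and -0.26 in WT and 0.06 and 0.22 in WT+NU6102, a rise of 0.39 or 1.31-fold (SE 0.09, limma adjusted p = 0.0145). The JUN call was lost without WT replicate 1, WT replicate 2 or WT+NU6102 replicate 2, with an adjusted p of up to 0.0703.

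The other two members did not pass the test. IER3, an early response protein tied to survival signalling, read 5.36 and 5.39 in WT and 5.28 and 5.32 in WT+NU6102, a difference of -0.07 (95% interval -0.20 to 0.05, limma adjusted p = 0.279), and its second probe gave -0.07 as well. With quantile normalization the IER3 difference was -0.24 and passed, at an adjusted p of 0.00884. ATF3, a stress-induced bZIP factor that can repress transcription, read 4.65 and 4.63 in WT and 4.58 and 4.68 in WT+NU6102, a difference of -0.0090 (95% interval -0.17 to 0.15, limma adjusted p = 0.924). The other 3 ATF3 probes differed by 0.14 to 0.27, with adjusted p of 0.0755 to 0.104, so the 4 probes did not share a direction and none passed.

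In all, 8 of the 10 genes were called between WT+NU6102 and WT, 2 higher and 6 lower, where 45.4% of all gene names were called, 24.4% higher and 21.0% lower. At least 2-fold, 4 of the 10 were called and all 4 were lower, where 5.17% of gene names were called lower by that much. The arrays of the 2 groups did not overlap for 9 of the 10 genes, against 74.2% of gene names. The median difference of the 10 genes was -0.49, and that of all gene names was 0.04.

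**Figure D2:**
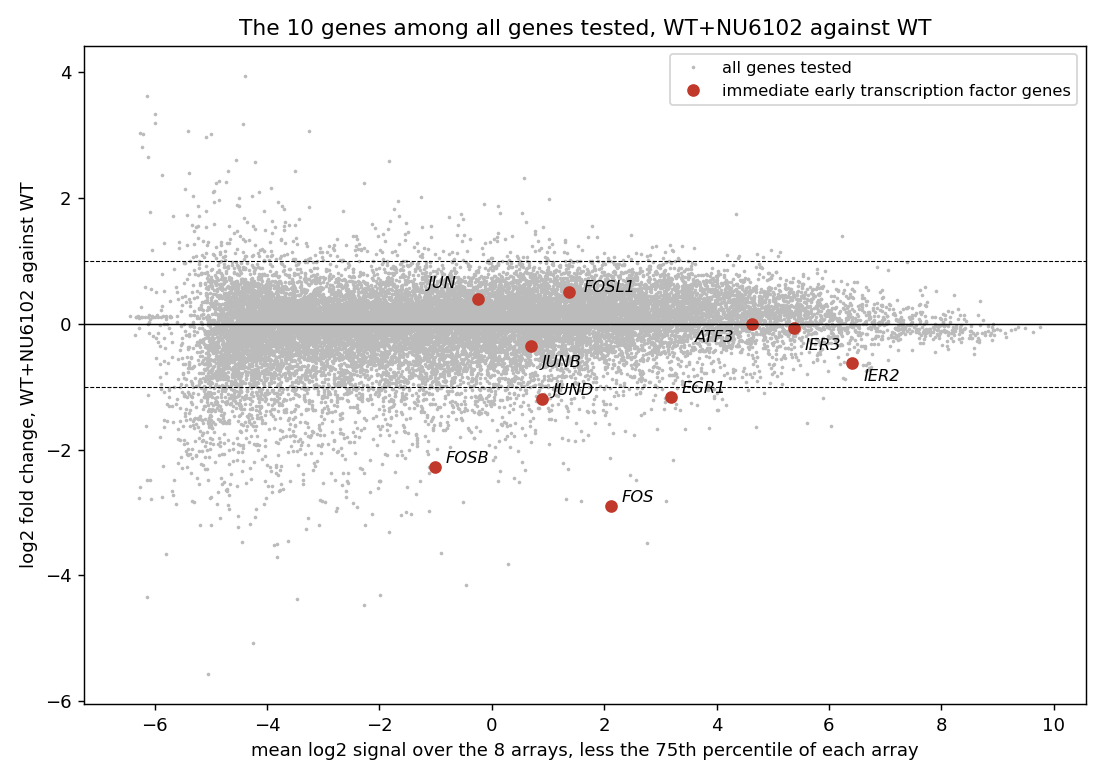
Difference between WT+NU6102 and WT for every gene name tested. The x axis is the mean log2 signal over the 8 arrays, less the 75th percentile of each array, and the y axis the log2 fold change, with dashed lines at 1 and -1; grey dots are the 21595 gene names and red dots the 10 genes. FOS and FOSB lie at the lower edge of genes with a like signal, JUND and EGR1 just past -1, and ATF3 and IER3 at 0.

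The 4 genes that fell at least 2-fold were set beside JUN, which rose, by the 250 bases before their transcription starts. Sequences are from RefSeq, build GRCh38.p14, written 5′ to 3′ on the strand of the gene. Capitals mark TGACGT, the core of the cyclic AMP response element that CREB1 and ATF proteins bind, on either strand, and in JUN TGACATCA, the related JUN1 site. Overlapping matches were joined, and no other letters are in capitals. The windows are chr14:75278578-75278827 on the plus strand for FOS, chr19:45467746-45467995 plus for FOSB, chr19:18281623-18281872 minus for JUND, chr5:138465229-138465478 plus for EGR1 and chr1:58784048-58784297 minus for JUN.
FOS: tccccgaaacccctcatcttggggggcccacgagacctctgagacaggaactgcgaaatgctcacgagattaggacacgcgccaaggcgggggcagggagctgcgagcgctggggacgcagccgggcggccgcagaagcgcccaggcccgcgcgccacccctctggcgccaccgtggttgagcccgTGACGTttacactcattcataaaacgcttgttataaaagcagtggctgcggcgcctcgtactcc
FOSB: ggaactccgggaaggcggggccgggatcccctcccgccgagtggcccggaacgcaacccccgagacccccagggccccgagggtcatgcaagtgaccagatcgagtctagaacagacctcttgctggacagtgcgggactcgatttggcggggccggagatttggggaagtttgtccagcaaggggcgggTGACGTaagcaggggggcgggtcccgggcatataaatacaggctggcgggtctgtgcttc
JUND: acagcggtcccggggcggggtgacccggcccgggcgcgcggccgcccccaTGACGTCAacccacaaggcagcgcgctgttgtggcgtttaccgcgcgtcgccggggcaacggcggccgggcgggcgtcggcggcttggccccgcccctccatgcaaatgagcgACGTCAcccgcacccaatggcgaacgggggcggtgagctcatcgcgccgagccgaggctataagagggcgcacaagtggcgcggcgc
EGR1: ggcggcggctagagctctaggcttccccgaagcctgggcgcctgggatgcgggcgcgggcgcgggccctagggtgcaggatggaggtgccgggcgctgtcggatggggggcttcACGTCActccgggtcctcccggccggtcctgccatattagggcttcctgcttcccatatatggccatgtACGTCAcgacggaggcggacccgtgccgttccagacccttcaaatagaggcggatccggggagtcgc
JUN: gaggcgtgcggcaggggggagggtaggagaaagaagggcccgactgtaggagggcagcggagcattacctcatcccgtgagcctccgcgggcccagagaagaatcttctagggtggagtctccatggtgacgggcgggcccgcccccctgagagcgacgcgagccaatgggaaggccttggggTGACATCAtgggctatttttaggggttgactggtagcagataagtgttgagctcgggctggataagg

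TGACGT lay 59 to 64 bases before the start in FOS and 55 to 60 bases before it in FOSB. JUND held it at 2 places, 82 to 87 and 193 to 200 bases before the start, the second being a palindrome that matches on both strands. EGR1 also held it at 2 places, 62 to 67 and 131 to 136 bases before the start, beside 2 serum response CArG boxes at 74 to 83 and 96 to 105. No TGACGT was found in the same window of JUN, JUNB, IER2 or either of the 2 ATF3 starts in the table. FOSL1 and IER3 had no window there, so they were not searched for any motif. TGACATCA was found once in JUN, 60 to 67 bases before the start, and once at the upstream ATF3 start. TGACTCA, the AP-1 site itself, was in none of these windows, and CGGAAG, an ETS core, was once in JUNB and at 2 places in IER2. Apart from that of EGR1, no window held a CArG box. Bases farther than 250 before a start were not searched, so a motif there would be missed.

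These motifs were picked after the windows had been seen, and a match is a description of letters. Of all 35116 promoter windows in the table, 7.1% held TGACGT, 2.37% TGACATCA, 4.2% TGACTCA, 16.5% CGGAAG and 1.16% a CArG box. Among gene names tested with a window, TGACGT was in 11.8% of 10531. A gene name was counted if any of its windows held the motif, so shares of gene names and of windows are in unlike units. Of the 1117 gene names called at least 2-fold lower with NU6102, 551 had a window, and TGACGT was in 50 of these, or 9.07%. TGACATCA was in 3.45% of the 551 and 2.17% of the 10531, TGACTCA in 5.99% and 4.49%, CGGAAG in 15.2% and 30.2%, and a CArG box in 2.9% and 1.54%. Among gene names called at least 2-fold higher with NU6102, 123 had a window, and TGACGT was in 16 of these, or 13%. Of the same 123, 0.813% held TGACATCA, 10.6% TGACTCA, 30.1% CGGAAG and 2.44% a CArG box.

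In CDK2 KO against WT, none of these genes differed by 2-fold, and 4 of the 5 called differences were upward. FOSB was higher by 0.98, or 1.97-fold (SE 0.15, 95% interval 0.62 to 1.34, limma adjusted p = 0.00576), and this call was kept in every fit that left out 1 array. EGR1 was higher by 0.48 (SE 0.14, limma adjusted p = 0.0473), JUNB by 0.35 (SE 0.06, 0.0111) and IER2 by 0.17 (SE 0.04, 0.0292). JUN read -0.69 and -0.51 in CDK2 KO, below both WT arrays, and was lower by 0.35 (SE 0.09, limma adjusted p = 0.0321). For EGR1 and IER2 the call was lost in 6 of the 8 fits that left out 1 array, with an adjusted p of up to 0.174 and 0.114. JUN lost it without WT replicate 1, WT replicate 2 or CDK2 KO replicate 1, and JUNB without WT replicate 1 or CDK2 KO replicate 2.

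FOS itself differed by 0.11 between CDK2 KO and WT (95% interval -0.10 to 0.32, limma adjusted p = 0.382), JUND by 0.12 (-0.0013 to 0.25, adjusted p = 0.12), FOSL1 by -0.02 (-0.16 to 0.13, adjusted p = 0.87), IER3 by -0.08 (-0.20 to 0.05, adjusted p = 0.292) and ATF3 by 0.06 (-0.11 to 0.22, adjusted p = 0.554). Called were 5 of the 10 genes, 4 higher and 1 lower, where 31.4% of all gene names were called, 16.6% higher and 14.7% lower. None of the 10 was called at least 2-fold, against 4.68% of gene names, and 9 of the 10 did not overlap, against 69.3%. The median of the 10 was 0.12 beside 0.02 for all gene names.

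R50, kept in NU6102, differed from WT past the threshold in 3 of these genes, each by less than 2-fold. FOSB was higher by 0.82, or 1.77-fold (SE 0.15, 95% interval 0.46 to 1.18, limma adjusted p = 0.0156), and FOS by 0.35, or 1.28-fold (SE 0.08, 0.14 to 0.56, adjusted p = 0.0357). FOSL1 read 0.88 and 0.93 in R50, the lowest 2 of its 8 arrays, and was lower than in WT by 0.45, or 1.37-fold (SE 0.06, limma adjusted p = 0.0065). The FOS call was kept in only 2 of the 8 fits that left out 1 array, those without an array of WT+NU6102, and the others gave an adjusted p of up to 0.151. The FOSB call was lost without WT replicate 1 or R50 replicate 1, at up to 0.0732, and the FOSL1 call was kept in all 8.

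The other 7 genes did not pass between R50 and WT. JUN differed by -0.0013 (95% interval -0.22 to 0.22), JUNB by -0.0072 (-0.17 to 0.15), JUND by -0.13 (-0.26 to -0.0045), IER2 by -0.08 (-0.18 to 0.03), IER3 by 0.17 (0.04 to 0.29) and ATF3 by -0.06 (-0.22 to 0.10), with limma adjusted p from 0.0647 for IER3 to 0.994 for JUN. IER3 passed with quantile normalization, a trended variance or the strictest filter, at adjusted p of 0.012 to 0.0499. EGR1 differed by -0.21 (95% interval -0.55 to 0.13, limma adjusted p = 0.333), and without R50 replicate 1, its higher array, by -0.42 with an adjusted p of 0.037. The 3 called genes, 2 higher and 1 lower, compare with 23.4% of all gene names called, 10.3% higher and 13.0% lower. At least 2-fold none was called, against 2.63% of gene names, and 6 of the 10 did not overlap, against 63.7%. The median of the 10 was -0.03 and that of all gene names -0.04.

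**Figure D3:**
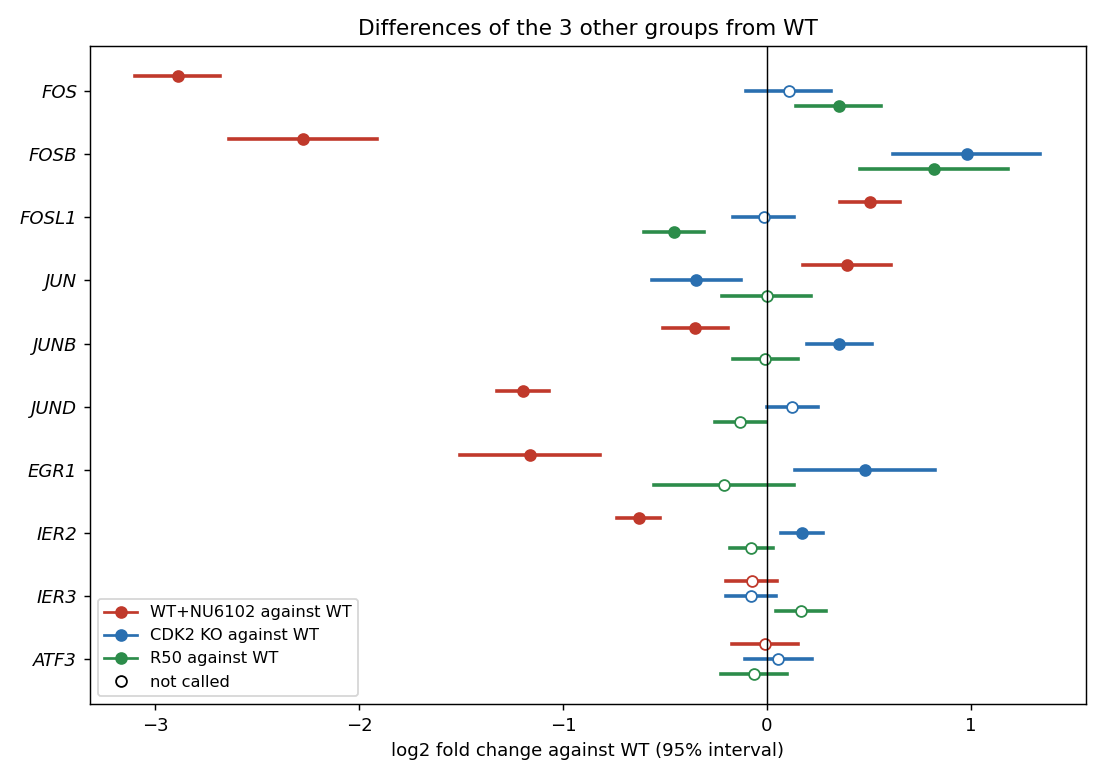
Log2 fold change of the 10 genes in WT+NU6102, CDK2 KO and R50, each against WT. Dots are the limma estimates from 2 arrays per group, bars their 95% intervals, and open dots did not pass an adjusted p under 0.05. FOS fell by 2.89 in WT+NU6102, and no interval of CDK2 KO or R50 reaches 2-fold below WT.

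The 3 comparisons above share the WT arrays. Side by side for FOSB, they gave -2.28 with NU6102, 0.98 in CDK2 KO and 0.82 in R50. For JUNB they gave -0.35, 0.35 and -0.0072, and for JUN 0.39, -0.35 and -0.0013. For FOSL1 they gave 0.50, -0.02 and -0.45.

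The cells kept in 50 µM NU6102 were also set against parental cells given 20 µM for 24 h. These 2 groups differ in line, since R50 was selected for resistance, and in dose, time and slide, which cannot be told apart. The WT+NU6102 arrays are those that gave the falls against WT, so the 2 comparisons are not independent. FOS was higher in R50 by 3.24, or 9.45-fold (SE 0.08, limma adjusted p = 1.7e-05), FOSB by 3.09, or 8.54-fold (SE 0.15, adjusted p = 5.91e-05), and JUND by 1.07, or 2.09-fold (SE 0.05, adjusted p = 6.04e-05). With the normexp background correction the FOSB difference was 2.39. EGR1 was higher by 0.95 (SE 0.14, adjusted p = 0.00229), IER2 by 0.55 (SE 0.04, 0.000217), JUNB by 0.34 (SE 0.06, 0.00631) and IER3 by 0.24 (SE 0.05, 0.0092). FOSL1 was lower in R50 by 0.96, or 1.94-fold (SE 0.06, adjusted p = 0.000118), and JUN by 0.40 (SE 0.09, adjusted p = 0.0119). The JUN call was lost without WT+NU6102 replicate 2 or R50 replicate 2, at up to 0.0601.

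In that comparison 9 of the 10 genes were called, 7 higher and 2 lower, where 51.5% of gene names were called, 22.7% higher and 28.8% lower. At least 2-fold higher were 3, against 7.50% of gene names, and 9 of the 10 did not overlap, against 75.1%. ATF3, at -0.05 (95% interval -0.22 to 0.11, limma adjusted p = 0.535), was not called by its brightest probe. A dimmer ATF3 probe, at chr1:212788502-212788561 on hg19, was lower by 0.20 (SE 0.06, limma adjusted p = 0.0422), and the mean of the 4 ATF3 probes by 0.17 (adjusted p = 0.0411).

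R50 and CDK2 KO, on the same slide, differed by less than 2-fold in every member, where 5.10% of gene names were called at 2-fold or more. EGR1 was lower in R50 by 0.69, or 1.61-fold (SE 0.14, limma adjusted p = 0.0137), FOSL1 by 0.44 (SE 0.06, 0.00371), JUNB by 0.36 (SE 0.06, 0.00918), JUND by 0.25 (SE 0.05, 0.0134) and IER2 by 0.25 (SE 0.04, 0.00787). JUN was higher in R50 by 0.34 (SE 0.09, adjusted p = 0.0297) and IER3 by 0.25 (SE 0.05, 0.0145). FOS differed by 0.24 (95% interval 0.04 to 0.45, limma adjusted p = 0.074, and 0.017 to 0.0385 with normexp, quantile normalization or a trended variance), FOSB by -0.16 (-0.52 to 0.20, adjusted p = 0.441) and ATF3 by -0.12 (-0.28 to 0.04, adjusted p = 0.215). Called were 7 of the 10, 2 higher and 5 lower, where 35.2% of gene names were called, 15.0% higher and 20.2% lower, and 9 of the 10 did not overlap, against 69.2%. Leaving out 1 array ended the JUN call in 5 of 8 fits, without WT replicate 1 or 2, CDK2 KO replicate 1 or R50 replicate 1 or 2 (adjusted p up to 0.124). It ended that of IER3 in 3, without CDK2 KO replicate 1 or 2 or R50 replicate 1 (up to 0.0703), that of JUND without CDK2 KO replicate 2 or R50 replicate 2 (up to 0.0731), and that of EGR1 without CDK2 KO replicate 1 or 2 (up to 0.0694).

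Ordered by group mean, CDK2 KO was highest and WT+NU6102 lowest, with WT and R50 between them, for JUNB, JUND, EGR1 and IER2. In none of these 4 genes did WT and R50 differ past the threshold, and in JUND neither did CDK2 KO and WT. FOS ran from R50 through CDK2 KO and WT to WT+NU6102, where only the last step passed the test, and FOSB from CDK2 KO through R50 to WT and WT+NU6102, where the first step did not. FOSL1 and JUN were highest in WT+NU6102, then WT, which did not differ from CDK2 KO in FOSL1 or from R50 in JUN past the threshold. The lowest group was R50 for FOSL1 and CDK2 KO for JUN. In IER3 and ATF3 no neighbours in the order differed past the threshold.

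The genes with a pattern most like each member were found over the 8 arrays among 18610 gene names, by the root mean square difference after each was centred on its mean. KLHL24 came first for both FOS (0.20 log2 units) and FOSB (0.16), and itself differed from WT by -2.50 in WT+NU6102, 0.63 in CDK2 KO and 0.77 in R50. SCNN1A, which encodes the alpha subunit of the epithelial sodium channel, and FBXO32, a ubiquitin ligase component, followed for FOS at 0.24 each. FOSL1 was most like BCL2L12 and MIS18A at 0.05 each, JUND like LYPLAL1 and CRYM at 0.06 each, EGR1 like ZNF815 at 0.09, and IER2 like IFT122 and PPA2 at 0.03 each. Members with a small range can match more closely, so these distances do not rank the members.

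Of the other genes of the pathway, 6 lists of 112 genes in all were examined, and 105 were tested. With NU6102, 68 of the 105 were called, or 64.8%, 35 higher and 33 lower, where 45.4% of gene names were called.

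Among 18 other immediate early transcription factor genes tested, 5 were higher and 5 lower with NU6102, with a median of 0.0077 beside 0.04 for all gene names. The nuclear receptor gene NR4A3 rose by 2.23 (SE 0.11, limma adjusted p = 0.00016) and KLF2 by 1.41 (SE 0.07, 0.000151). IER5L, a relative of IER2, fell by 1.71 (SE 0.05, limma adjusted p = 8.5e-05), the circadian repressor gene BHLHE40 by 1.38 (SE 0.06, 0.000123) and EGR2 by 1.05 (SE 0.10, 0.000673). EGR4 was not well above background on either treated array and was at least 3.59-fold lower there than in WT (limma adjusted p = 0.000111). That bound takes the dimmest signal well above background on each treated array in place of a lower probe value. The adjusted p is for the values as read, without that replacement, and does not test the bound.

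Among 17 AP-1 partners and related bZIP genes tested, 6 rose and 6 fell. DDIT3, which encodes the stress factor CHOP, rose by 1.94 (SE 0.09, limma adjusted p = 0.000152) and ATF5 by 1.53 (SE 0.06, 0.000112). BATF2 fell by 1.94 (SE 0.09, 0.000151), MAFF by 0.76 and CREB1 by 0.67 (limma adjusted p = 0.00033 and 0.00117). Of 20 other immediate early genes that are not transcription factors, 8 rose and 6 fell. SGK1, a kinase gene, and HBEGF, an EGF family ligand, each rose by 1.43 (limma adjusted p = 0.000219 and 0.000192). CYR61, a matricellular gene, fell by 1.08 (SE 0.07, adjusted p = 0.000291). Its relative CTGF, which was well above background on all arrays but those of CDK2 KO, fell by 1.50 (SE 0.21, limma adjusted p = 0.00258).

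The upstream kinases and serum response factors changed less than 2-fold. Of 18 tested, 7 rose and 4 fell, between -0.63 for MAPK3, which encodes ERK1, and 0.58 for RPS6KA4, which encodes MSK2. These counts were 3 and 4 with quantile normalization and 2 and 3 without a filter on dim probes. They were 3 and 3 without WT replicate 1 or WT replicate 2, and 2 and 3 without WT+NU6102 replicate 2. ELK1 rose by 0.29 (limma adjusted p = 0.019) and MAPK7 by 0.45 (0.00619), while RPS6KA3, which encodes RSK2, fell by 0.53 (0.00323). The 16 genes that bind AU-rich elements or degrade mRNA also stayed within 2-fold, with 4 higher and 6 lower, from -0.47 for ZFP36L2 to 0.57 for CNOT7.

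Among 16 AP-1 and EGR1 target genes tested, 5 rose and 6 fell. TGFB1 rose by 1.61 (SE 0.05, limma adjusted p = 8.5e-05) and ODC1, the first enzyme of polyamine synthesis, by 1.40 (SE 0.05, 8.5e-05), and the matrix protease gene MMP7 fell by 1.88 (SE 0.10, 0.000166). The medians of the 6 lists lay between -0.08 and 0.06.

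**Figure D4:**
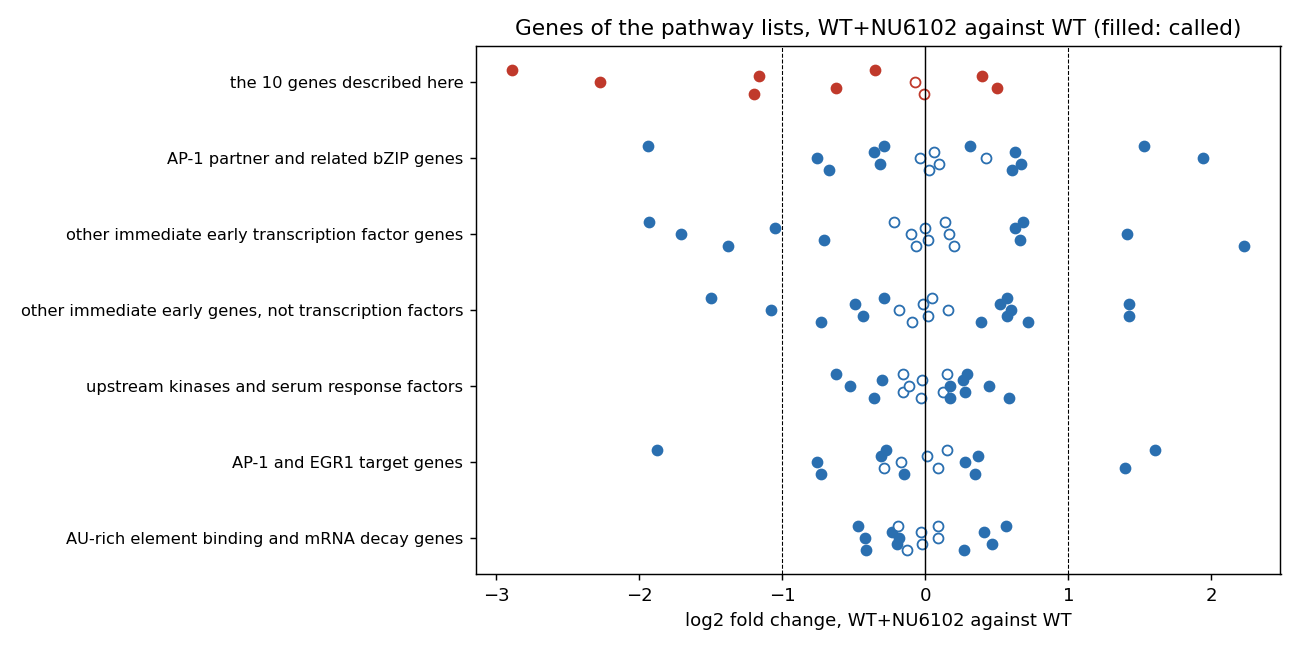
Log2 fold change between WT+NU6102 and WT for the 10 members (red) and the tested genes of the 6 pathway lists (blue), with dashed lines at 1 and -1. Each dot is 1 gene, filled where the adjusted p was under 0.05. Each list except the kinases and the mRNA decay genes has genes past both lines, while the 10 members have 4 past -1 and none past 1.

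In CDK2 KO against WT, 58 of the 105 pathway genes were called, or 55.2%, 28 higher and 30 lower, where 31.4% of gene names were called. PLK2, a polo-like kinase gene of the early response, rose by 1.73 (SE 0.08, limma adjusted p = 0.000139), EGR4 by 1.72 (SE 0.08, 0.00013) and ATF5 by 1.15 (SE 0.06, 0.000224). BATF2 fell by 2.87 (SE 0.09, limma adjusted p = 5.09e-05), VIM by 2.16 (SE 0.08, 6.98e-05) and KLF2 by 1.31 (SE 0.07, 0.000197). CTGF was not well above background on the CDK2 KO arrays and was at least 5.10-fold lower than in WT (limma adjusted p = 0.000872 for the values as read, not for the bound). In R50 against WT, 37 of the 105 were called, or 35.2%, 14 higher and 23 lower, where 23.4% of gene names were. PLK2 was higher there by 1.71 (SE 0.08, limma adjusted p = 0.000355) and MMP7 was lower by 1.33 (SE 0.10, 0.00108). EGR4 fell by 1.06 in R50 (SE 0.08, limma adjusted p = 0.00112), from a dim WT mean of -3.08. The dimmest signals well above background on the R50 arrays were -5.14 and -4.87.

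The probes lie on hg19, by the scanner files of the WT and WT+NU6102 arrays, at chr14:75748214-75748273 for FOS, chr19:45978205-45978264 for FOSB, chr19:18391371-18391430 for JUND and chr5:137804891-137804950 for EGR1. FOSL1 was read at chr11:65660098-65660157, JUN at chr1:59246511-59246570, JUNB at chr19:12902998-12903057 and IER2 at chr19:13265586-13265645. The files assign each of these to 1 RefSeq transcript and do not say which exon or untranslated part it covers.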

How the data were processed

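RNA of 8 HCT-116 samples was measured on one-colour Agilent arrays. The authors deposited, per spot, the intensity after background subtraction by Agilent Feature Extraction 11.5.1.1, per the labels, with no normalization between arrays. The deposited log2 values, which the methods say came from GeneSpring GX, were used as an alternative. Of those shared with the scanner files, 99.7% lay within 0.01 of the log2 scanner signal, once 1 constant per probe and 1 per array were taken off. That check cannot tell how the deposited values were centred per probe, since any such centring drops out.

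After control and outlier spots had been removed, the 75th percentile of each array was taken from its log2 signals, and a probe's spots were averaged. Of 50599 probes, 31 had no usable spot on some array. Tested were the 28677 that Feature Extraction marks as well above background in both samples of a group, for any of the 4 groups. They carry 21595 gene names, transcript names without a gene symbol included, and each name is represented by its brightest probe. Limma 3.58.1 in R 4.3.3, with the package data.table (version 1.17.8), fitted the 4 groups together. Tests are two-sided with Benjamini-Hochberg adjustment over all tested probes. The 95% intervals are for single probes. The script was tested on simulated data. Plots were made in matplotlib 3.10.9 under Python 3.11.15.

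The members, the pathway lists and the rules for named genes were chosen with earlier results of these data known. Named genes are the members and, per list and contrast, the 3 largest rises and falls and genes past 2-fold that are well above background on all arrays. Promoter windows are 250 bases before each RefSeq start. Duplicate arrays of 1 line measure the spread between these cultures, and with 2 arrays a group their number limits the precision. Same-numbered arrays deviated from their group means with correlations of -0.03 to 0.05, so the numbers were not taken as pairs.

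Alternatives were normexp (offset 50), quantile normalization, testing without a filter, a filter for probes well above background on all 8 arrays, the deposited log2 values, a trended prior variance, a replicate block, the mean of a gene's probes, leaving out each array, only the 4 arrays compared, and the methods' t-test and ANOVA. For the pathway lists they were added after seeing the data.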

Additional observations from a re-analysis of the deposited data

How the results depend on the processing

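With 2 arrays per group the calls of the large falls in WT+NU6102 stood under each setting below, and those of small differences often did not. For WT+NU6102 against WT, 8 members were called, 4 with the further limit of 2-fold and 5 with the methods' t-test (8 at an unadjusted p under 0.05). For CDK2 KO against WT 5 were called, but 3 with quantile normalization, 1 without a filter on dim probes, 3 with only the arrays compared, 0 at 2-fold and 1 with the methods' t-test. For R50 against WT 3 were called, but 1 without a filter, 1 with only the arrays compared, and 0 both at 2-fold and with the methods' t-test (4 at an unadjusted p under 0.05). For R50 against WT+NU6102 9 were called, but 3 at 2-fold and 6 with the methods' t-test, where EGR1, JUN and IER3 were lost at adjusted p of 0.103, 0.111 and 0.0836. IER3 there was also lost without a filter (0.0519 by limma). For R50 against CDK2 KO 7 were called, but 3 without a filter, 3 with only the arrays compared, 0 at 2-fold and 1 with the methods' t-test. Without a filter more probes are tested, and with only the arrays compared fewer samples are. Over all 28677 probes tested, the methods' t-test called 5299 for WT+NU6102, 1434 for CDK2 KO and 13 for R50, each against WT. It called 8097 for R50 against WT+NU6102 and 2167 for R50 against CDK2 KO. In R50 against WT few probes of any gene passed it, so the 0 members there say little about these genes.

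The F-test called 6 members, and 3 without a filter, 3 with the methods' ANOVA and 3 with the replicate block. The block moved 1 pairwise call of a member, EGR1 in CDK2 KO against WT, to an adjusted p of 0.0599, and changed no other; the numbers do not pair the arrays. Leaving out 1 array, the F-test called 1 to 4 members, and the contrasts 7 to 8 for WT+NU6102 against WT, 1 to 5 for CDK2 KO against WT, 1 to 3 for R50 against WT, 8 to 9 for R50 against WT+NU6102 and 4 to 7 for R50 against CDK2 KO.

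The sign of some differences near 0 turned. FOSL1 in CDK2 KO was 0.022 with normexp, and -0.066 to 0.035 over the fits without 1 array. JUN in R50 against WT was 0.0057 in the deposited values and -0.052 to 0.050 without 1 array. JUNB there was 0.0049 with normexp, 0.019 with quantile normalization and -0.055 to 0.040 without 1 array. ATF3 with NU6102 was 0.14 as the mean of its probes and -0.061 to 0.043 without 1 array, and in CDK2 KO -0.0037 with normexp. ATF3 in R50 against WT+NU6102 was 0.14 with quantile normalization, and -0.11 to 0.0063 without 1 array. EGR1 in R50 against WT ran from -0.42 (adjusted p = 0.037 by limma) to 0.0020 without 1 array, and no other value in this paragraph passed the test. The cause was not tested.

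Counts of calls in the pathway lists moved too. Over all settings, calls with NU6102 ran from 5 to 11 for the kinases (11 as reported), 7 to 11 for the targets (11) and 6 to 11 for the mRNA decay genes (10). In CDK2 KO against WT they ran from 7 to 14 for the AP-1 partners (13), 9 to 15 for the early genes that are not transcription factors (14), 3 to 7 for the kinases (6) and 2 to 7 for the decay genes (7). In R50 against WT they ran from 4 to 9 for the AP-1 partners (8), 2 to 7 for the other transcription factors (6), 4 to 9 for the genes that are not (6), 0 to 5 for the kinases (4), 3 to 7 for the targets (5) and 2 to 10 for the decay genes (8). The lists not given here stayed within 1.5 times their count. The lowest counts came without a filter, with only the arrays compared or without 1 array.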
